A study of Mus musculus with 8 samples.

Results

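The genes described here encode the machinery of oxidative phosphorylation in mouse hypothalamus and liver: the subunits of complexes I to V of the mitochondrial inner membrane and the complex I assembly factors named with them. A gene was taken as a member when a probe carried exactly 1 platform symbol beginning with Nduf, Uqcr, Cox4 to Cox8 or Atp5, or was 1 of the 4 succinate dehydrogenase genes Sdha, Sdhb, Sdhc and Sdhd. The rule matched 66 probes for 65 genes, out of 13840 genes with a single-symbol probe on the array. Where a gene had more than 1 probe, the brightest was used. The members were 26 subunit genes of complex I, 4 complex I assembly factors, 4 genes of complex II, 6 of complex III, 12 of complex IV, 12 of complex V and 1 pseudogene, Ndufs5-ps. The rule used no difference between strains, diets or tissues, though it was set with earlier results of these data known.

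Complexes I to IV form the respiratory chain. Complex I takes electrons from NADH and complex II takes them from succinate, both pass them to ubiquinone, complex III hands them on to cytochrome c, and complex IV reduces oxygen to water. Complexes I, III and IV pump protons out of the matrix, and complex V, the ATP synthase, lets them back through a rotating ring of c subunits to make ATP. Most subunits are encoded in the nucleus and are measured here, while the core of several complexes also contains subunits encoded by mitochondrial DNA, which were not analysed here. Liver uses this system to burn fatty acids and to power glucose synthesis, and neurons depend on it for ion pumping.

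The study looked for genes that differ between a congenic strain and its background strain in tissues that bear on nutrient intake. Hypothalamus and liver came from male mice of 2 strains, C57BL/6J, called B6 below, and B6.CAST-17, homozygous for a chromosome 17 segment of CAST origin on the B6 background. Mice were on chow or had been given for 24 h a choice between a carbohydrate and protein diet and a fat and protein diet, called 2-choice below. Each of the 8 arrays read 1 pool of RNA from 6 mice, and no group had a replicate pool. The choice diets held 78% of the main macronutrient and 22% protein. The pooled mice of both strains were those most divergent in nutrient intake among the 20 to 25 tested per strain over 10 days. They had then returned to chow for 6 weeks before the choice day, and the choice pools were taken 4 h before lights out. Ages were not given, and the collection time of the chow pools was not established. Groups follow the sample titles, which some free-text descriptions contradict.

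The deposited values were linear intensities whose distribution was shared by both strains of a tissue and diet but differed between such pairs. The quartiles differed by up to 2.23 log2 units between the diets in hypothalamus and by up to 0.0928 in liver. Diet and scaling set therefore cannot be told apart. Levels below are log2 intensities, brought to common quantiles across the 4 arrays of each tissue, or across all 8 for the tissue comparison, and differences are log2 differences with standard errors (SE) from limma where fitted. A level depends on the probe, so it is compared only between arrays for the same gene. The tissue labels were borne out by 7 measured hepatocyte genes, whose summed signal was 22.97 to 23.48 in the liver arrays against 12.23 to 13.49 in the hypothalamus arrays. The 6 hypothalamic peptide genes summed to 18.61 to 19.16 in hypothalamus and 11.67 to 12.35 in liver. Of 8 neuron markers at most 1 was under the filter described below in a hypothalamus array, against 3 to 6 in the liver arrays. In whole tissue, fewer cells of a type and less RNA per cell cannot be told apart.

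Most members gave strong signal. Of the 65, 57 in liver and 53 in hypothalamus lay at or above the 80th percentile of all probes. The filter for testing, the 40th percentile of the tissue, passed 61 members in liver and 63 in hypothalamus, 60 of them in both. Cox4i2, the lung and hypoxia form of cytochrome oxidase subunit 4, was under the filter in both tissues, with levels of 7.89 to 9.70 in the hypothalamus arrays and 8.25 to 9.10 in the liver arrays. Cox7b2 and Cox6b2, both known as testis forms, and the probe of Sdhb, the iron-sulfur subunit of complex II, were under it in liver. Cox8b, the heart and muscle form of subunit 8, was under it in hypothalamus. Sdhb is needed wherever complex II works, yet its probe read only 8.08 to 9.04 in liver, so its values describe that probe.

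The first comparison is between the tissues, matched for strain and diet. On the main scaling, both membrane anchors of complex II, the 3 small subunits of complex III, 7 subunits of complex I and 5 of complex V had higher signal in liver, while no cytochrome oxidase subunit passed as higher. By limma with Benjamini-Hochberg adjustment over 24156 probes, 26 of the 64 members tested passed 0.05, 20 higher in liver and 6 lower. Of the 60 that passed the filter in both tissues, 25 did, 20 higher and 5 lower. Of all probes, 41.4% passed in either direction, 20.2% higher and 21.2% lower, so the members' share as a whole was close to the background. The median member difference was 0.20 and that of all probes 0.05.

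Within complex II, Sdhd, a membrane anchor, read 16.19, 16.10, 16.03 and 16.20 in the B6 chow, congenic chow, B6 2-choice and congenic 2-choice hypothalamus pools, and 17.43, 17.53, 17.76 and 17.38 in the same order in liver. The liver pools lay above every hypothalamus pool, with a difference of 1.40 ± 0.16 (SE) and an adjusted p of 3.78e-05 by limma, a 2.64-fold higher signal. Sdhc, the other anchor, was also higher in liver, by 0.76 ± 0.20. Sdha, the flavoprotein that oxidises succinate, did not pass, and its hypothalamus signal differed between pools in a way described with diet.

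All 6 measured genes of complex III had a positive difference and 4 passed: the small subunits Uqcr11 (1.09 ± 0.19), Uqcrq (0.87 ± 0.25) and Uqcr10 (0.56 ± 0.17), and Uqcrfs1, the Rieske iron-sulfur protein (0.77 ± 0.17). Uqcr11 read 14.91, 14.74, 15.14 and 15.28 in hypothalamus and 16.13, 16.36, 15.99 and 15.97 in liver, in the order of pools given above, with no overlap. The core proteins Uqcrc1 and Uqcrc2, at 0.14 and 0.19, did not pass.

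In complex I, 7 of 26 subunits were higher in liver and none passed as lower, with the other 19 between -0.46 and 0.71. The 7 were Ndufb11 (1.03 ± 0.33), Ndufs6 (0.87 ± 0.18), Ndufa1 (0.81 ± 0.20), Ndufb9 (0.79 ± 0.17), Ndufb3 (0.72 ± 0.25), Ndufa6 (0.57 ± 0.16) and Ndufs3 (0.53 ± 0.18). Of these only Ndufs3 is a core subunit, which joins the electron input module to the quinone module. The complex I assembly factors, which are not part of the finished enzyme, split: Ndufaf4 and Ndufaf1 were higher in liver, Ndufaf5 and Ndufaf7 lower. Ndufaf4 read 9.42, 11.36, 11.64 and 11.69 in hypothalamus and 12.94, 12.89, 13.02 and 13.14 in liver, with a difference of 1.96 ± 0.39 (adjusted p = 0.00186 by limma). The B6 chow hypothalamus pool was the low one, and without the B6 chow pair the difference was 1.45. Ndufaf7, which methylates a complex I core subunit, read 15.88, 15.77, 15.49 and 15.44 in hypothalamus against 14.36, 14.59, 14.44 and 14.73 in liver, a difference of -1.12 ± 0.19 with no overlap. Ndufaf1 differed by 1.40 ± 0.25 and Ndufaf5 by -1.76 ± 0.40.

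On the main scaling complex IV showed no member higher in liver by the test, and of the 8 that passed the filter in both tissues 2 were lower. Cox4i1, the ubiquitous form of subunit 4, was lower in liver by the main scaling (-0.59 ± 0.15) but higher, at 0.90 and 0.59, with median centring and with no normalization. The same reversal met Cox8a, the ubiquitous form of subunit 8, at -0.53 ± 0.18 by the main scaling and 0.89 and 0.59 by the others. Cox6b1 (-0.23), Cox7b (0.17), Cox7c (0.40), Cox7a1 (0.43), Cox7b2 (-0.98) and Cox8b (0.44) did not pass, and Cox6b1 also turned positive under both other scalings. With median centring Cox4i1, Cox8a and Cox6b1 passed as higher in liver (adjusted p = 0.0095, 0.0071 and 0.0038 by limma). With no normalization these genes did not pass. The direction called for them thus depended on the scaling. Cox6b2, the testis form of subunit 6b, entered the test only through its hypothalamus level. It read 9.43, 10.71, 10.54 and 10.77 in hypothalamus and 8.14, 8.53, 8.59 and 7.83 in liver, where its mean was under the filter, so it was called lower but no fold is given. Cox7b2 and Cox8b likewise passed the filter in 1 tissue alone.

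In complex V, 5 of 12 genes were higher in liver: Atp5e (0.70 ± 0.16), Atp5mpl (0.59 ± 0.19), Atp5g2 (0.50 ± 0.16), Atp5d (0.49 ± 0.16) and Atp5pb (0.43 ± 0.16). Atp5d and Atp5e encode the delta and epsilon subunits of the rotating stalk, and Atp5pb encodes stator subunit b. The 3 genes for subunit c, which encode the same mature protein behind different import sequences, had differences of 0.29 (Atp5g1), 0.50 (Atp5g2) and 0.34 (Atp5g3), of which only Atp5g2 passed, and that of Atp5g1 ran from -0.37 to 0.92 over the pairs. The pseudogene Ndufs5-ps, whose probe could also read its parent gene, passed as lower (-0.54 ± 0.17) but was higher under both other scalings (0.52 and 0.22).

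**Figure D1:**
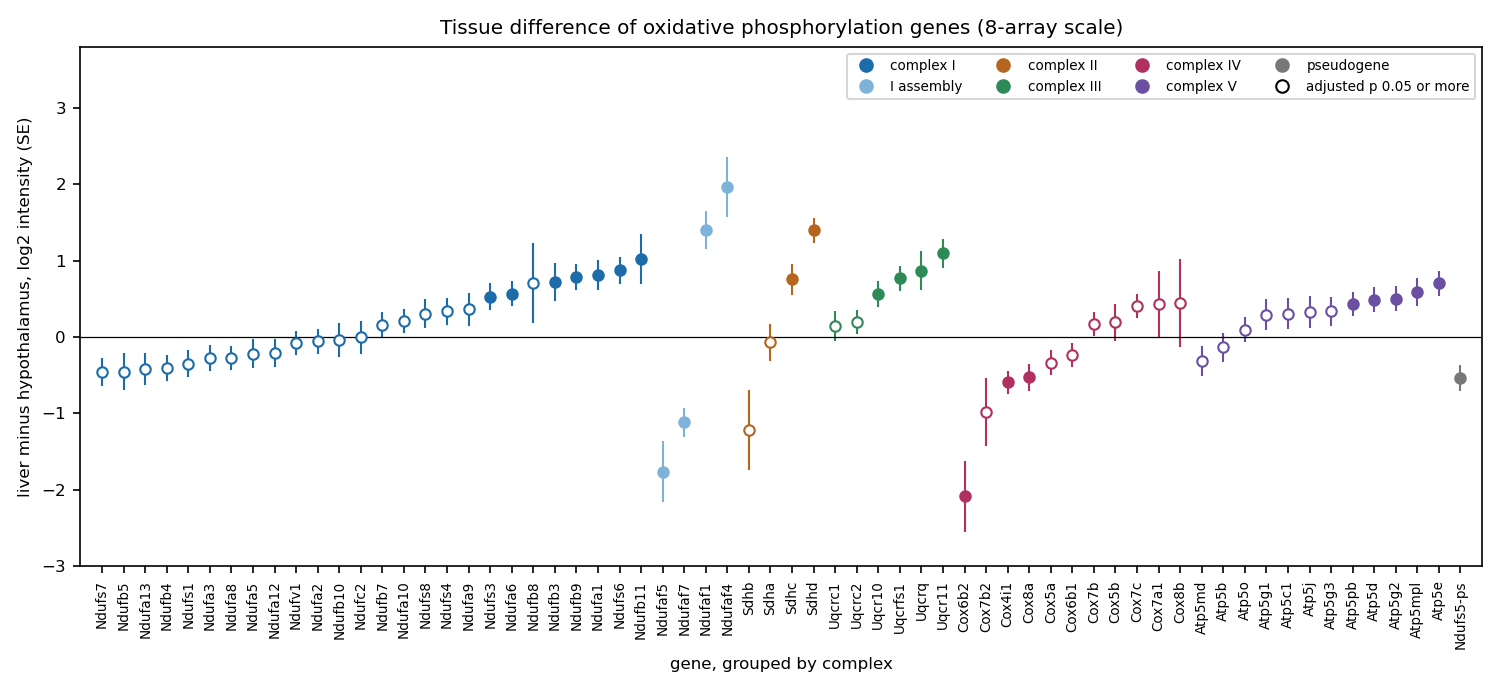
Each point is 1 gene's fitted liver minus hypothalamus difference in log2 intensity with its standard error as a bar, over 4 matched pairs of pools on the 8-array scale, grouped by complex and sorted within it. Filled points passed an adjusted p of 0.05; complex III lies above 0 throughout, from 0.14 to 1.09, while the filled complex IV points lie below it, at -0.53 for Cox8a and -0.59 for Cox4i1, which turn positive under the other scalings. The third, Cox6b2, was under the filter in liver.

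The count of members depended on the scaling. With median centring in place of quantile normalization 50 of 64 passed, 48 higher in liver and 2 lower, where 39.1% of probes passed, and with no normalization 6 passed, 3 in each direction, where 24.7% of probes did. The member median was then 1.16 or 0.85, which was 0.88 above the median of all probes under both, against 0.15 above it under the main scaling. Among the 60 members that passed the filter in both tissues, the median of the 6 complex III genes minus that of all 60 was 0.089 to 0.48 in the 4 matched pairs under the main scaling and 0.10 to 0.52 under the others. For the 8 complex IV genes it was -0.73 to -0.14 under the main scaling and -0.47 to -0.070 under the others. Leaving out 1 pair gave 15 to 21 called members, with 15 without the congenic 2-choice pair and 17 without the congenic chow pair, where 34.8% and 38.5% of probes passed. Without the trend in variance 7 passed, against 38.2% of probes.

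Other genes of the pathway differed between the tissues as well, in a test that called 20.2% of all probes higher and 21.2% lower. Of 11 measured transcriptional regulators of mitochondrial genes, 7 were higher in liver and none lower: Nrf1 (1.44 ± 0.50), Gabpa (1.47 ± 0.48), Yy1 (0.63 ± 0.21), Esrra (1.80 ± 0.35), Tfam (1.18 ± 0.22), Tfb1m (1.44 ± 0.34) and Tfb2m (2.06 ± 0.26). Nrf1, Gabpa and Yy1 encode factors known to bind promoters of respiratory genes, and Tfam, Tfb1m and Tfb2m serve mitochondrial DNA. Under no normalization 1 of the 11, Tfb2m, passed, where 24.7% of probes did. Under median centring 7 passed, where 39.1% did, but Nrf1 was not among them (1.11, adjusted p = 0.0962 by limma). Of 11 tricarboxylic acid cycle genes 4 were higher, led by Idh2 (2.82 ± 0.42), and 4 lower, led by citrate synthase, Cs (-1.89 ± 0.16). Of these 4, Idh3g and Mdh2 turned positive with median centring. Of 24 genes for assembly and for copper or haem delivery 7 were higher and 6 lower, and of 10 for carriers, uncouplers and electron delivery 1 was higher and 5 lower. The lower calls on Coa3, Cox14, Sdhaf2 and Vdac1 turned positive with median centring, and that on Coa3 with no normalization too.

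The promoters of members were read for motifs that some of these factors are known to bind. RefSeq promoters of build GRCm38.p6, 250 bases before to 50 after a start, were found for 55 members (59 promoters). On either strand, the NRF1 motif, GCGCA and GCGC with any 1 base between them, was in 25.4% of member promoters and 4.6% of all 32851 promoters. The ETS core CCGGAAG, the type of site bound by GABP, was in 20.3% against 8.86%, and the YY1 motif AAGATGGC in 13.6% against 2.75%. The SP box GGGCGG (44.1% against 35.7%), CCAAT (42.4% against 37.4%) and TATAAA (10.2% against 13.6%) were closer. Member promoters also had more CpG dinucleotides, with a median of 19 against 7, and the motifs with CpG share that composition. These are letter matches and not evidence of binding.

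All 3 members shown next have an NRF1 match, which only 14 of the 55 member genes had in their promoters, so they are not typical. In the 140 bases before the start, Atp5j held 1 SP box and Cox8a none of these motifs. The full promoter of Cox8a did hold an ETS core and a CCAAT match. The last 140 bases before the start are given for Sdhd and Ndufaf4 from the tissue comparison and Sdha from the diet comparison, with NRF1, ETS core and SP box matches in capitals.
Sdhd (chr9:50603850-50603989, minus strand): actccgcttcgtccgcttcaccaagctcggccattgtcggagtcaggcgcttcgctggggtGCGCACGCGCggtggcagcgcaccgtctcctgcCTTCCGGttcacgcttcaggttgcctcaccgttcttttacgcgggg
Ndufaf4 (chr4:24897943-24898082, plus strand): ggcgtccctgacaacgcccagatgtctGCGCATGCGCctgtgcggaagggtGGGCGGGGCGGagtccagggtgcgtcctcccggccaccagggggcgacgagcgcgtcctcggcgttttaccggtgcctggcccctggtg
Sdha (chr13:74350241-74350380, minus strand): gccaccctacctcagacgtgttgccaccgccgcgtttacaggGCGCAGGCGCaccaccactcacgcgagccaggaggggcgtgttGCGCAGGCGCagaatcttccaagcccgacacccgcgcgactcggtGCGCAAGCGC
Sdha held 3 NRF1 matches in this window, Sdhd 1 NRF1 and 1 ETS core match, and Ndufaf4 1 NRF1 match and 2 SP boxes that overlap by 1 base.

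The second comparison, the one the study was built for, is between the strains. No member passed in any strain test. Over the 4 matched pairs of pools, limma called 0 of 60 members and 0 of 15466 probes (0%), with 660 probes at an unadjusted p under 0.05. Over the 4 pairs 45 members were higher and 15 lower in the congenic pools, with a median of 0.10 against 0.00 for all probes. This came mostly from the chow pairs, in which 45 of 61 members in liver (median 0.14) and 41 of 63 in hypothalamus (median 0.11) were higher. In the 2-choice pairs 34 of 61 (median 0.041) and 32 of 63 (median 0.014) were, and leaving out 1 pair gave a median of 0.058 to 0.15. The counts over the 4 pairs were the same with no normalization and with median centring. In the liver fit 44 of 61 were higher (median 0.08, 1318 of 19807 probes at an unadjusted p under 0.05) and in the hypothalamus fit 40 of 63 (median 0.10, 983 probes), again with 0 calls among members and 0% among probes. The direct test of whether the strain difference depends on tissue also called 0 of 60 members and 0 probes, with 836 at an unadjusted p under 0.05.

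By complex, over both tissues 17 of 26 genes of complex I, all 4 assembly factors, 2 of 3 genes of complex II, 6 of 6 of complex III, 5 of 8 of complex IV and 10 of 12 of complex V were higher in the congenic pools. Of all probes 50.4% were. These are signs of a mean over pairs: 3 of 6 complex III genes were higher in the hypothalamus fit, and 3 of 6 in the liver 2-choice pair. Within a tissue, members with the same sign in both pairs numbered 26 higher and 8 lower in liver, against 28.1% and 28.7% of probes, and 21 higher and 11 lower in hypothalamus, against 24.4% and 25.1%. Cox8b passed the liver filter only through the congenic pools and is left out of the next counts. In the liver chow pair the other 8 tested complex IV genes were higher in the congenic pool, with a median of 0.31, and in the liver 2-choice pair 5 of 8, with a median of 0.14. In hypothalamus 5 of 10 complex IV genes were higher, with a median of -0.06.

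In all 4 pairs 6 of 60 members were higher in the congenic pool, against 6.81% of probes: Cox7c, Atp5e, Atp5d, Atp5pb, Ndufa8 and Ndufv1. Ndufs1 was lower in all 4, against 6.99% of probes. Cox7c, a small subunit of cytochrome oxidase, read 17.06 and 17.60 in the B6 and congenic chow livers, 16.61 and 16.91 in the 2-choice livers, 15.69 and 16.06 in the chow hypothalami and 15.54 and 15.78 in the 2-choice hypothalami. The congenic pool was higher each time, by 0.24 to 0.54, and the fitted difference of 0.36 ± 0.11 had an adjusted p of 0.863 by limma. Without the hypothalamus chow pair, 11 of 60 members were higher in all 3 remaining pairs, against 14% of probes, and 2 were lower, against 14.5%.

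**Figure D2:**
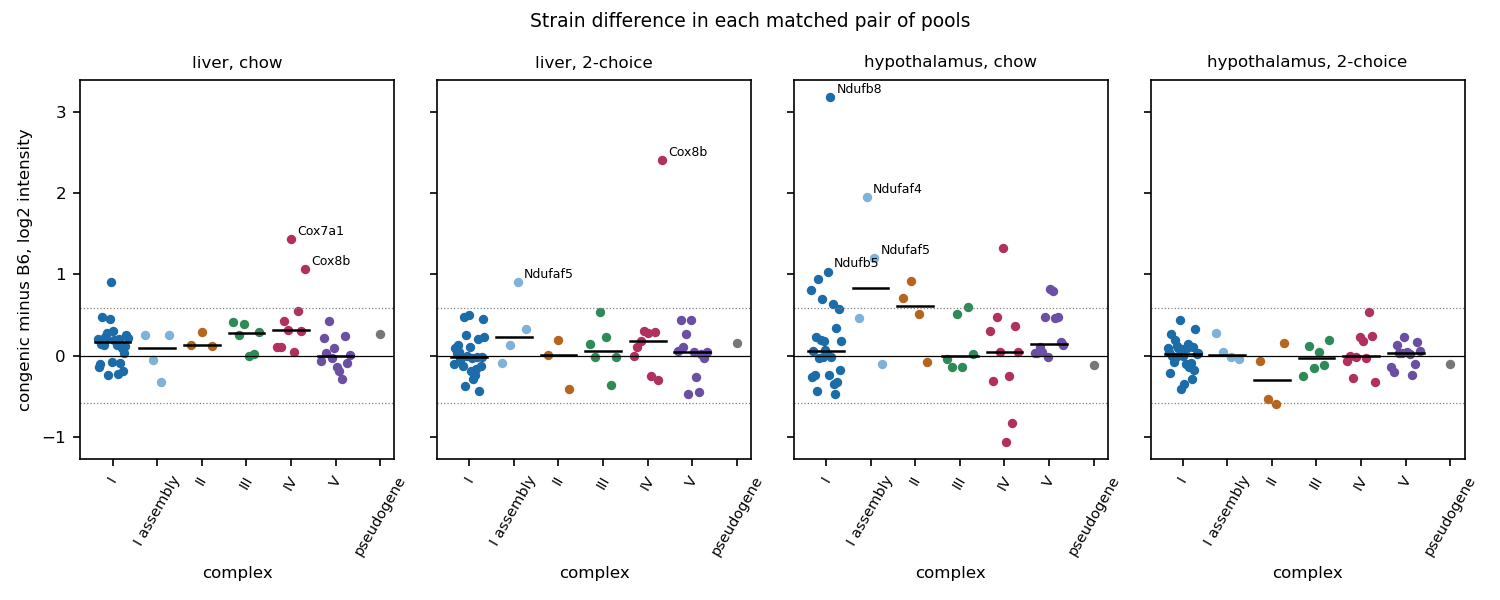
Each point is 1 member's congenic minus B6 difference in log2 intensity in 1 matched pair of pools, by complex, with black bars at the complex medians and dotted lines at 1.5-fold. The hypothalamus chow pair is the widest, with Ndufb8 as the highest point, set by a B6 level of 8.93 that is under the filter level, and Ndufaf4 at 1.95, and the hypothalamus 2-choice pair the narrowest, with no member above the upper line.

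The hypothalamus chow pair stood apart from the other 3. The interquartile range of the member differences was 0.60 there and 0.23 in the hypothalamus 2-choice pair, 0.28 in the liver chow pair and 0.33 in the liver 2-choice pair. Over all tested probes the ranges were 1.22, 0.41, 0.78 and 0.79. In the hypothalamus chow pair 14 of 63 members, among them Ndufb8 and Sdhb with a B6 level under the filter, were at least 1.5-fold higher in the congenic pool and 2 were lower, where 26.3% and 25.1% of all probes were, and 10.7% and 9.09% of bright probes, those at or above the 80th percentile. In the hypothalamus 2-choice pair 0 members were 1.5-fold higher and 1, Sdhc, was lower, against 7.45% and 7.09% of probes.

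Ndufb8, a membrane arm subunit of complex I, is the extreme case. In hypothalamus it read 8.93 in the B6 chow pool, under the filter level of 9.26, and 12.12 in the congenic chow pool, but 10.90 and 10.99 in the B6 and congenic 2-choice pools. In liver it read 11.53 and 11.66 on chow and 10.88 and 10.60 on 2-choice. As the B6 chow value is under the filter level, no fold is given for that pair. The 2-choice pair differed by 0.09, and without the hypothalamus chow pair the fitted difference over both tissues was -0.02. Ndufaf4 read 9.56 in the B6 chow hypothalamus pool and 11.50, 11.76 and 11.81 in the other 3, and Ndufb5, also of the membrane arm, 14.38 against 15.42, 15.88 and 15.54. For both genes the B6 chow pool alone was low. With the same sign in both hypothalamus pairs and a mean of at least 1.5-fold, 3 members were higher (Ndufb8, Ndufaf4 and Cox6b2, against 10.2% of probes), and 0 were lower, against 10.1%.

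In liver, 1 member other than Cox8b was higher in both pairs with a mean of at least 1.5-fold, against 9.16% of probes, and 0 were lower, against 13.3%. It was Cox7a1, the muscle form of cytochrome oxidase subunit 7a, which read 10.64 and 12.08 in the B6 and congenic chow pools and 11.42 and 11.70 in the 2-choice pools, so the difference was 1.44 and 0.28. Cox8b read 8.78 and 9.85 on chow and 7.99 and 10.40 on 2-choice. Both B6 values were under the liver filter level of 9.04, so it is given as values only. Muscle and brown fat markers, 6 genes of which 3 to 5 were under the filter in each liver pool, summed to 12.01 and 11.80 on chow and 11.60 and 12.07 on 2-choice in the B6 and congenic pools. Their part in the Cox7a1 and Cox8b values was not tested.

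Ndufb10 and Ndufaf7 are the members on chromosome 17, the chromosome of the congenic segment. Whether either gene lies inside the donor segment was not established here. Ndufb10, a membrane arm subunit, read 16.61 and 17.05 in the B6 and congenic chow livers, 16.58 and 16.83 in the 2-choice livers, 16.42 and 16.41 in the chow hypothalami and 15.26 and 15.70 in the 2-choice hypothalami. The congenic pool was higher in 3 of 4 pairs, with a fitted difference of 0.28 ± 0.12 (adjusted p = 0.863 by limma). Ndufaf7 was higher in the congenic livers, by 0.25 and 0.33, and close to level in the hypothalami, at -0.10 and -0.04, with 0.11 ± 0.12 over both tissues. The 140 bases before each start are shown for these genes because of their chromosome, in the reference sequence, and contain none of the motifs above.
Ndufb10 (chr17:24724424-24724563, minus strand): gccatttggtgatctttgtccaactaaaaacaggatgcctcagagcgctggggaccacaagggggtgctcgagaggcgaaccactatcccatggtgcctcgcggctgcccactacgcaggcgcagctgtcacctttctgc
Ndufaf7 (chr17:78936995-78937134, plus strand): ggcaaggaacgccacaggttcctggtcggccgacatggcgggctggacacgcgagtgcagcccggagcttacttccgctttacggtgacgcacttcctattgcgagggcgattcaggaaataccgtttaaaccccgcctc

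The strain tests rest on very few degrees of freedom, and 1 array could decide them. Without either of the 2-choice hypothalamus arrays, 8 members passed the hypothalamus strain test, where 6.76% and 6.95% of probes did, and 5 the test of strain by tissue, where 5.24% and 5.2% did. The chow pair alone then gave the hypothalamus difference and liver alone gave the error.

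The third comparison is 2-choice against chow. In liver no member passed (0 of 61, and 0% of 19807 probes by limma, with 1731 at an unadjusted p under 0.05), and members were spread evenly around 0, with 29 higher and 32 lower and a median of -0.02. Under no normalization 22 were higher and 39 lower, and under median centring 21 and 40. By complex, 9 of 12 complex V genes and, without Cox8b, 6 of 8 complex IV genes were lower, and all 3 tested complex II genes were higher. In complex I 15 of 26 genes were higher, in complex III 3 of 6 and among the assembly factors 3 of 4. Of all probes 49.1% were higher. In both strains 18 members were higher, against 29.3% of probes, and 27 were lower, against 30.9%.

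Higher in both strains with a mean of at least 1.5-fold were 4 members, against 12.5% of probes: Atp5j, Ndufs4, Ndufa6 and Ndufaf5. Atp5j, which encodes coupling factor F6 of the ATP synthase stator, read 17.13 and 16.95 in the B6 and congenic chow livers and 18.19 and 17.93 in the 2-choice livers. Both choice pools lay above both chow pools, with a difference of 1.02 ± 0.20 (adjusted p = 0.229 by limma). A second, dimmer Atp5j probe did not follow, with 0.28 in B6 and -0.45 in the congenic strain. Ndufs4, an accessory subunit of the complex I input module, read 16.28 and 16.09 on chow and 17.13 and 16.70 on 2-choice, again without overlap (0.73 ± 0.16, adjusted p = 0.288 by limma). Ndufa6 read 16.73 and 16.94 on chow and 17.51 and 17.39 on 2-choice (0.62 ± 0.16, adjusted p = 0.361 by limma). Ndufaf5 rested on 1 strain, at 0.10 in B6 and 1.33 in the congenic pools.

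Lower in both strains by the same measure were 2 members, Ndufb8 and Ndufb11, against 12.1% of probes. Ndufb11, a membrane arm subunit, read 12.34 and 13.24 in the B6 and congenic chow livers and 11.96 in both 2-choice pools. Cox7c was lower on 2-choice in both strains, by 0.45 and 0.70 (fitted -0.57 ± 0.16, adjusted p = 0.377 by limma). A fit on the 4 liver arrays alone, with 1 residual degree of freedom, called 5 of 61 members, among them Atp5j, Ndufs4 and Cox7c, and 3.23% of probes. The 6 measured macrophage markers summed to 17.77 and 17.79 in the chow livers and 16.60 and 16.31 in the 2-choice livers. The 2 measured erythroid markers summed to 17.68 and 17.54 on chow and 17.17 and 16.54 on 2-choice, but they split. Hba-a1 went from 17.33 and 17.13 to 16.47 and 15.46, while Alas2 went from 15.43 and 15.52 to 15.78 and 15.62. Endothelial markers summed to 16.29 and 16.16 on chow and 15.84 and 15.82 on 2-choice. The part of these lists in the diet differences was not tested.

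In hypothalamus, also, no member passed: 0 of 63, where 0.49% of 19807 probes did by limma, 97 in number, and 4143 were at an unadjusted p under 0.05. Those closest were 3 members that belong to different complexes. Sdha, the catalytic subunit of complex II, read 14.88 and 15.59 in the B6 and congenic chow pools and 16.41 and 16.34 in the 2-choice pools. Both choice pools were above both chow pools, by 1.53 in B6 and 0.76 in the congenic strain, with a fitted difference of 1.14 ± 0.20 (adjusted p = 0.0519 by limma). It was positive under every scaling tried, but with no normalization all 63 members were, and with median centring 60 of 63. Those 2 signs therefore do not set Sdha apart.

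Ndufb10 read 16.42 and 16.41 on chow and 15.26 and 15.70 on 2-choice, so both choice pools were below both chow pools (-0.93 ± 0.17, adjusted p = 0.0540 by limma). Uqcrq, a small subunit of complex III, read 17.31 and 17.33 on chow and 16.37 and 16.55 on 2-choice (-0.86 ± 0.16, adjusted p = 0.0585 by limma). Cox8a read 17.69 and 17.73 on chow and 17.16 and 16.84 on 2-choice (-0.71 ± 0.19, adjusted p = 0.112 by limma). These 3 lower values reversed with no normalization, to 1.12, 1.14 and 1.21. The deposited choice arrays were brighter at every quartile, and the cause of the reversal was not tested. Sdha, Ndufb10 and Uqcrq passed when quantile normalization ran over all 8 arrays, where 1.02% of probes did. They were among the 5 of 63 members that passed in a fit on the 4 hypothalamus arrays alone, where 3.8% of probes did.

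**Figure D3:**
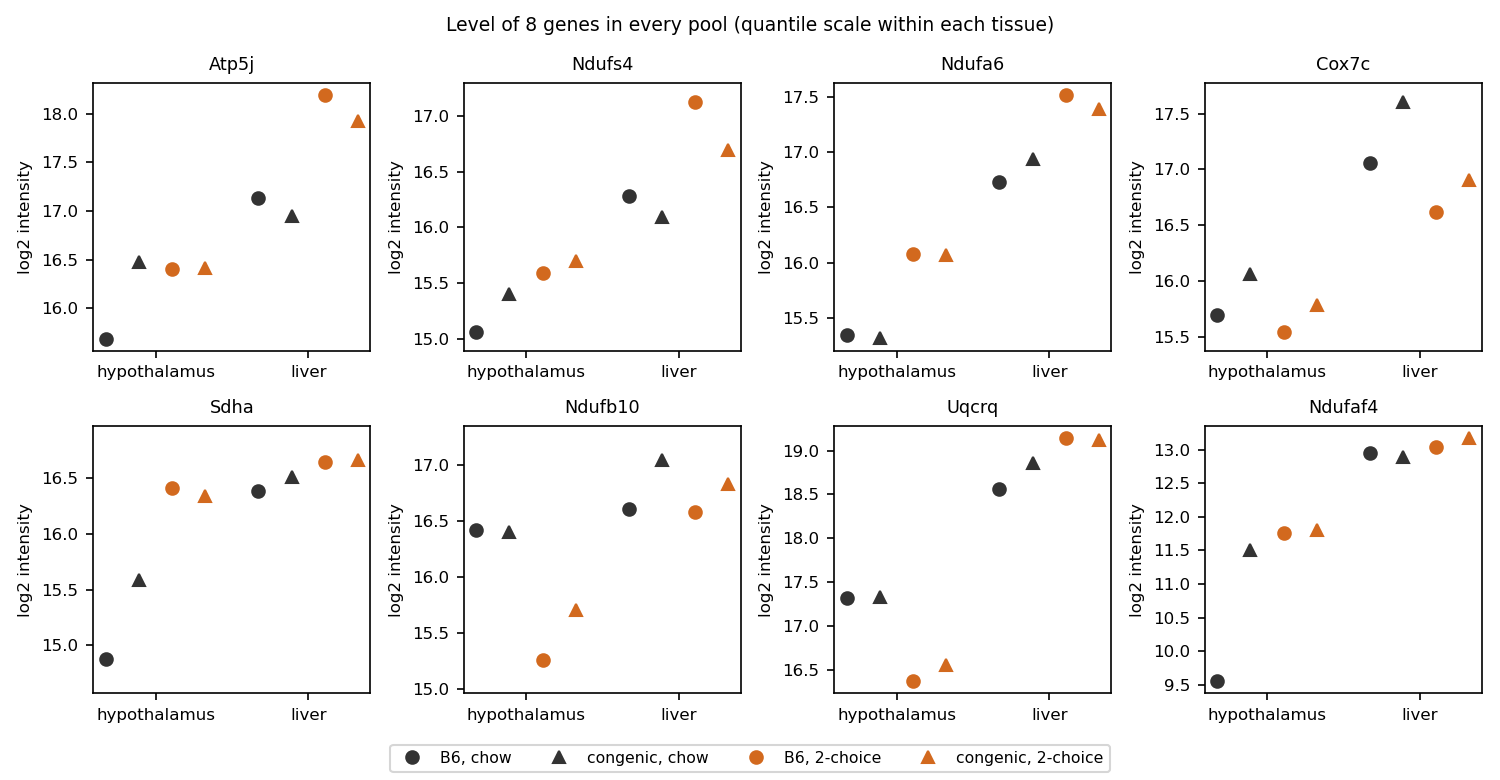
Each panel gives the log2 intensity of 1 gene in the 8 pools, with black for chow and orange for 2-choice, circles for B6 and triangles for the congenic strain, on the scale of each tissue, so that hypothalamus and liver heights are not comparable. In hypothalamus the 2 orange Sdha points, 16.41 and 16.34, lie above the black ones, and the orange Ndufb10 and Uqcrq points lie below them.

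Over all hypothalamus members 39 were higher and 24 lower, with a median of 0.14 against 0.07 for all probes. By strain, 38 of 63 were higher in the B6 pair, with a median of 0.17, and 31 of 63 in the congenic pair, with a median of -0.025, which is also the fitted median without either B6 hypothalamus array. In both strains 24 were higher, against 33.6% of probes, and 18 were lower, against 29.7%. With no normalization all 63 were higher and 63 passed, where 77.9% of probes passed, with a median of 2.12 against 2.05 for all probes. With median centring 60 were higher and 51 passed, where 38.5% of probes did, with a median of 0.86 against 0.79. In each case the member median was 0.07 above that of all probes. Higher in both strains with a mean of at least 1.5-fold were 8 members, against 21.8% of probes (Sdhb, Ndufaf4, Sdha, Ndufb5, Ndufa6, Cox5b, Cox7b2 and Cox6b2), and 3 were lower, against 16.6% (Ndufb10, Uqcrq and Cox8a). For Ndufaf4 the difference was mostly that of the B6 pair, at 2.21 against 0.31, where the B6 chow pool was low. Sdhb in the B6 chow pool (8.53) and Cox7b2 in the congenic chow pool (8.75) were under the filter level of 9.26, so no fold is given for those pairs. Ndufa6 was even in both, at 0.74 and 0.76.

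Among the other pathway genes, 1 passed the diet test in hypothalamus, where 0.49% of probes did. It was Cox19, a copper chaperone for cytochrome oxidase, with 1.74 in B6 and 3.01 in the congenic strain (2.38 ± 0.36, adjusted p = 0.035 by limma). Cox19 also passed under the other scalings, but without the variance trend 0 of 19807 probes passed this test. The 4 measured oligodendrocyte markers summed to 16.83 and 17.08 in the chow hypothalami and 17.99 and 17.65 in the 2-choice hypothalami. The hepatocyte sum, 12.55 and 12.23 on chow, was 12.97 and 13.49 on 2-choice. Of its 7 genes 4 and 5 were under the filter on chow and 3 and 2 on 2-choice. Macrophage and microglia markers summed to 15.78 and 15.66 on chow and 15.27 and 15.24 on 2-choice. Muscle and brown fat markers, with 3 to 5 of 6 under the filter, summed to 13.59 and 13.93 on chow and 12.96 in both choice pools. The part of these lists in the diet differences was not tested. Without the congenic 2-choice or the congenic chow hypothalamus array, 10 and 11 of 63 members passed, where 8.05% and 8.65% of probes did.

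**Figure D4:**
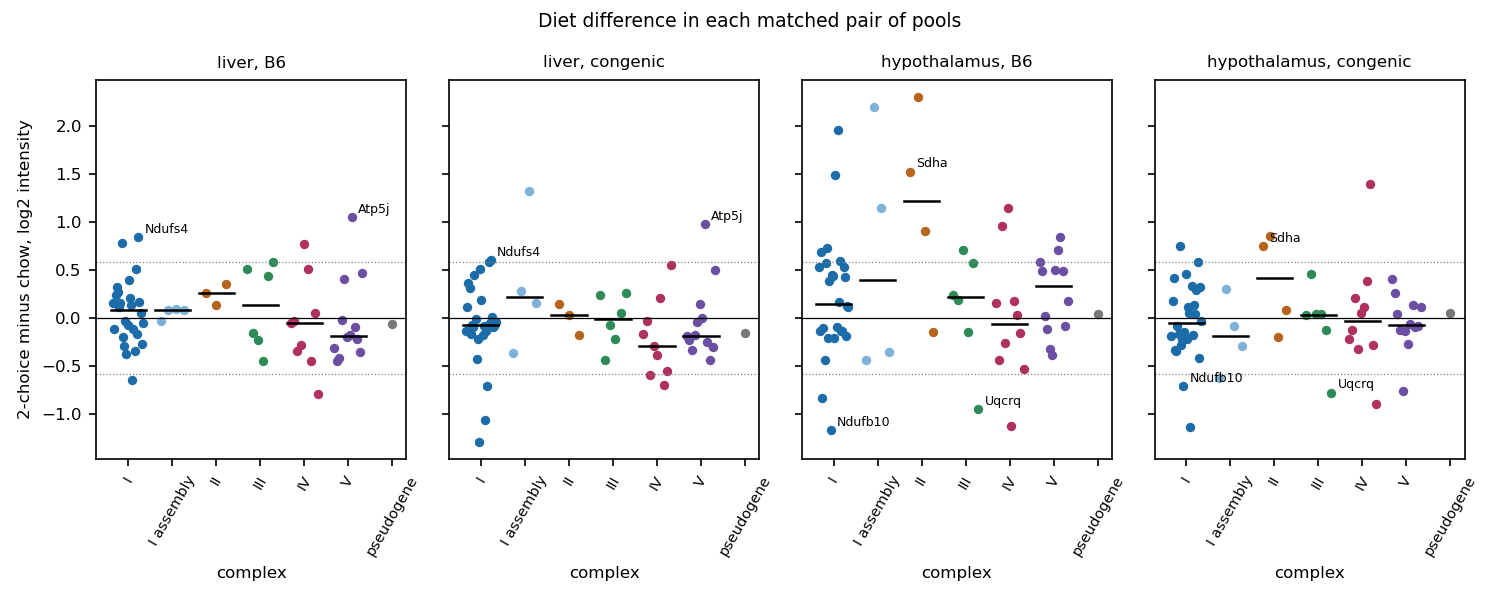
Each point is 1 member's 2-choice minus chow difference in log2 intensity in 1 strain and tissue, by complex, with black bars at the complex medians and dotted lines at 1.5-fold. Atp5j lies near 1 in both liver panels (1.06 and 0.98), Sdha above the upper line in both hypothalamus panels (1.53 and 0.76), and Ndufb10 and Uqcrq below the lower line in both.

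Across both tissues, 9 of 60 members were higher on 2-choice in all 4 matched pairs, against 10.6% of probes, and 8 were lower, against 9.1%. The higher ones were Sdha, Ndufs4, Ndufa6, Ndufa12, Ndufs6, Ndufaf4, Uqcr10, Cox7b and Atp5pb. The lower ones were Cox5a, Cox6b1, Cox7c, Ndufa8, Ndufb10, Ndufaf1, Atp5e and Atp5o. The test of whether the diet difference depends on tissue called 0 members and 10 of 15466 probes (0.0647%). Uqcrq came closest, with a liver minus hypothalamus diet difference of 1.29 ± 0.24 (adjusted p = 0.134 by limma): its liver level was higher on 2-choice, by 0.58 and 0.27, while its hypothalamus level was lower, and with no normalization the sign of the difference turned to -0.83. Without a congenic hypothalamus array 9 of 60 members passed that test, where 7.56% (2-choice) and 8.35% (chow) of probes did. Without a B6 one 2 did, where 2.84% and 3.08% of probes did.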

How the data were processed

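Per the labels' protocols, RNA was converted to digoxigenin-labelled cRNA and read on single-channel Applied Biosystems arrays. The authors deposited linear intensity values for 33012 probes. How these were background-corrected and scaled is not given in the sources used here. Of the probes, 14411 had 1 gene symbol in the platform annotation, 247 several and 18354 none given.

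Intensities were taken to log2 and quantile normalized across the 4 arrays of each tissue, or all 8 for the tissue comparison. Probes at or above the 40th percentile of mean log2 in a tissue were tested (levels 9.04 in liver and 9.26 in hypothalamus; 19807 probes each, 15466 in both), and 24156 that passed in at least 1 tissue in the tissue comparison. Linear models were fitted with limma (version 3.58.1, R version 4.3.3) with eBayes and its trend option, and p-values were adjusted by Benjamini-Hochberg over all probes tested, at 0.05. The strain test over both tissues and the tissue test took the 4 matched pairs as blocks, which left 3 residual degrees of freedom. Effects per tissue and interactions came from 1 fit of 8 arrays (2 residual degrees of freedom). Scripts were tested on simulated data. No pool was repeated, so the error comes from interactions. A p-value reflects how far these particular pools spread, with each variance moderated by limma towards that of probes of like intensity. It does not measure a spread between repeated pools. The number of arrays limits the precision.

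Named with values were members that passed, the 3 highest and 3 lowest per comparison where a result turned on them, those on chromosome 17, tissue isoforms, and those with the same sign in all pairs and a mean of at least 1.5-fold. Members and lists were chosen with earlier results of these data known. Alternatives were other scalings, filters, no variance trend, a tissue alone and leaving out each array or pair.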

Additional observations from a re-analysis of the deposited data

How the results depend on the processing

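The limits are the unrepeated pools, the unknown upstream scaling and the few residual degrees of freedom. Under other settings the number of probes called was as follows. With a tissue fitted alone it was 252 (strain in liver), 21 (strain in hypothalamus), 639 (diet in liver, with 5 members) and 753 (diet in hypothalamus, with 5 members). Median centring and no normalization each gave 1 for strain in hypothalamus. For diet in hypothalamus the count was 43 with a 60th percentile filter, 7633 with median centring (51 members, median 0.86), 15430 with no normalization (63 members, median 2.12), 0 without the variance trend and 202 with quantile normalization over 8 arrays (3 members). For diet by tissue the count was 2, 3901 (36 members), 10781 (59 members), 0 and 0 under the same settings. The tissue comparison called 5931 with no normalization, with 6 members and a median of 0.85, 50 members with median centring (median 1.16) and 7 members without the trend. The member median for diet in liver was -0.11 under both other scalings. The alternative of taking the mean of all probes of a gene was computed for the medians only.

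Signs turned under other scalings as follows, with median centring first where both turned. For diet in hypothalamus they were Ndufaf7 (0.52 and 1.78), and with no normalization alone Cox8a (1.21), Ndufb10 (1.12) and Uqcrq (1.14). For diet by tissue they were Ndufaf7 (-0.45 and -1.70) and Ndufb10 (-0.10 and -1.35), and with no normalization alone Ndufa13 (-1.06) and Uqcrq (-0.83). For the tissues they were Cox4i1 (0.90 and 0.59), Cox6b1 (1.08 and 0.77), Cox8a (0.89 and 0.59), Ndufb10 (1.10 and 0.80) and Ndufs5-ps (0.52 and 0.22). Of these genes all but Ndufs5-ps passed as higher in liver with median centring. The cause was not tested.

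Leaving out 1 array or pair gave ranges of 0 to 9 probes for strain over both tissues (9 without the hypothalamus chow pair), 10 to 78 for strain in liver, 0 to 1376 for strain in hypothalamus (0 to 8 members, median 0.014 to 0.11), 9 to 258 for diet in liver (0 to 2 members, median -0.078 to -0.024), 25 to 1714 for diet in hypothalamus (0 to 11 members, median -0.025 to 0.17), 3 to 810 for strain by tissue (0 to 5 members) and 4 to 1292 for diet by tissue (0 to 9 members). For the tissues it gave 15 to 21 members with a median of 0.12 to 0.22. Fewer arrays leave 1 fewer residual degree of freedom, and an array left out of a tissue takes that tissue out of the error. Ranges that crossed 0 were those of Ndufb8 (-2.82 to 0.28 for diet by tissue, -0.022 to 1.14 for strain over both tissues), Ndufb10 (-0.091 to 0.37 for strain by tissue, -0.017 to 0.44 for strain in hypothalamus, -0.24 to 0.18 for the tissues) and Cox7a1 (-1.06 to 0.18 for strain in hypothalamus). Of the other values of single members, 904 were on the same side of the threshold with the same sign as the main value, 63 passed where it had not and 75 did not pass where it had. The background of bright probes, the counts without the hypothalamus chow pair, without Cox8b and over members that passed the filter in both tissues, and the count without the pseudogene, with which 25 members passed in the tissue comparison, were chosen after seeing the data.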
